A study of Homo sapiens with 6 samples.

Results

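The S100 genes encode small calcium-binding proteins, and 10 of them were examined in DU145 cells treated with or without taraxasterol (TAX), namely S100A2, S100A4, S100A6, S100A8, S100A9, S100A10, S100A11, S100A14, S100A16 and S100P. These 10 genes, among the 23062 identifiers of the tables, were chosen by gene symbol with earlier results of the same comparison known. Their TAX and control values are therefore a description, and where a member was called across all genes this is stated without support being drawn from it. The rule holds no threshold, since S100A13, with a mean of 59.6 FPKM in control cells, is not listed, while S100P, with 0.0285 FPKM, is. The other 11 S100 genes of the tables and S100PBP, the gene of an S100P-binding protein, are given beside them.

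DU145 cells, labelled wild type, are an established human line grown from a brain metastasis of prostate cancer. TAX is a pentacyclic triterpene from dandelion, and the cells received it at the IC50 dose for 48 h, while control cells were kept in MEM medium for 48 h (n = 3 each). By the methods of the study TAX was taken up in DMSO, while the labels give medium for the control and do not say whether it held DMSO, so the solvent and TAX cannot be told apart. All cultures stem from 1 line, and the labels do not say whether replicates are separate cultures, so p-values measure only the spread between these libraries.

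The 6 tables hold FPKM values that sum to between 322483 and 363724 per library, without read counts. Values of single libraries are given below in the order of replicates 1, 2 and 3. In libraries of the same group, Pearson's r of log2(FPKM + 1) across genes was 0.991 to 0.995. The epithelial markers KRT8, KRT18, KRT19, EPCAM and CDH1 were all at 40.7 FPKM or more in every library, while the prostate luminal markers KLK2 and KLK3 were listed at 0 in every library.

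S100 proteins carry a pair of EF-hands, the loops that bind calcium, and act mostly as dimers. On binding calcium they expose a surface for target proteins such as annexins, myosin heavy chains and p53. Some of them are also released from cells, and S100A8 and S100A9 together form calprotectin, an alarmin that is abundant in neutrophils and monocytes and is induced in stressed or inflamed epithelium. S100A10 is an exception in the family, since it binds annexin A2 without needing calcium. Most S100 genes lie side by side in the epidermal differentiation region of chromosome 1.

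In GENCODE 29 (GRCh38), 9 of the 10 members lie on chromosome 1 and S100P lies on chromosome 4 from 6693069 to 6697170. S100A10 (151982915 to 151994390) and S100A11 (152032506 to 152047907) stand apart from the rest. S100A9 spans 153357854 to 153361027 on the plus strand and S100A8 153390032 to 153391188 on the minus strand, with 33.3 kb between their starts. The genes S100A6 (153534599 to 153536244), S100A4 (153543613 to 153550136), S100A2 (153561108 to 153567890), S100A16 (153606886 to 153613145) and S100A14 (153614255 to 153616986) follow, all on the minus strand. S100A3 lies inside the span of S100A4 on the same strand. S100A6 and S100A11 each overlap a gene on the opposite strand, and the strand setting of the counting is not given. No stretch of 50 bases in GENCODE transcripts of 9 members occurred in a transcript of another gene, and in S100A11 it was 1.905% of the stretches.

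The 250 bases before the start of 4 members are printed as the sequence context of the genes described most fully below. S100A9 was lower after TAX, S100A8 is its partner gene with values near 0, and S100A6 and S100A2 were higher. The sequences are from RefSeq (GRCh38.p14), 5′ to 3′ on the strand of the gene, and capitals mark matches to the motifs described after them. They lie at chr1:153357604-153357853 on the plus strand for S100A9 and, on the minus strand, at chr1:153391074-153391323 for S100A8, chr1:153535992-153536241 for S100A6 and chr1:153565845-153566094 for S100A2.
S100A9: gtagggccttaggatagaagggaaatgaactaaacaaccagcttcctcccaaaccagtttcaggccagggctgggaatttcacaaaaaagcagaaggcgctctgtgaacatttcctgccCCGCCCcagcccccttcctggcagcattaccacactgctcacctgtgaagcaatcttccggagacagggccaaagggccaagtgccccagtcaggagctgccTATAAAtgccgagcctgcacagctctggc
S100A8: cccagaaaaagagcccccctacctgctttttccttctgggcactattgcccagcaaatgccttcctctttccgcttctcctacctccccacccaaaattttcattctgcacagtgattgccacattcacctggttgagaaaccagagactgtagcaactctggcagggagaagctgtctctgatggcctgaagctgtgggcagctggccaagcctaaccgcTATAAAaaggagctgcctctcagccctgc
S100A6: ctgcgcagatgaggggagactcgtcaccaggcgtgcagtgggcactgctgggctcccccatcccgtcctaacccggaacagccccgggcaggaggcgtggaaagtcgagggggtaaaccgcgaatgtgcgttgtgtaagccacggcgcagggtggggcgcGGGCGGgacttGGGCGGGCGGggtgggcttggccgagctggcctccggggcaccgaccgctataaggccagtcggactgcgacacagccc
S100A2: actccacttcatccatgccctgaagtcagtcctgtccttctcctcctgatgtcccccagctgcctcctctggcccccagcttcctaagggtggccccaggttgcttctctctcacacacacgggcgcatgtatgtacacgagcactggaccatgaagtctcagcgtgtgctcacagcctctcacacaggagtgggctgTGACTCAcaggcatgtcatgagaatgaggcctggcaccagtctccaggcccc

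The upstream windows were searched on both strands for the TATA box (TATAAA), C/EBP (TTNNGCAA), AP-1 (TGANTCA), STAT (TTCNNNGAA), the E-box (CACGTG), a sterol regulatory element (TCACNCCAC) and the GC box (GGGCGG). RefSeq gives 14 such windows for the 10 members, since several have more than 1 start. A TATA box was found in 5 of the 14 windows, which belong to S100A4, S100A8, S100A9 and S100P, and in 10.7% of the 35116 windows of all genes. Both S100A8 matches are the same bases, seen in overlapping windows. The first base of the TATA box lay 29 bases before the start in S100A9 and in the printed window of S100A8. GC boxes were found in 5 of the 14 windows, each of another member (42.6% of all windows), and S100A6 had 3 of them, of which a pair overlaps. The printed S100A2 window held an AP-1 match 52 bases before the start (6.57% of all windows), and S100A11 held a C/EBP match (9.05% of all windows). The letters for STAT, the E-box and the sterol regulatory element were in none of the 14 windows, against 6.57%, 6.345% and 0.883% of all windows. A match describes the letters of the window and does not show that a factor binds there.

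In the TAX libraries S100A9 was lower and S100A16, S100A2 and S100A6 were higher than in every control library, whereas S100A10, S100A11 and S100A4 overlapped between groups. Differences were estimated with limma on the log2(FPKM + 1) scale over the 12359 genes that had at least 1 FPKM in at least 3 libraries, a scale that understates changes of low genes. Of the 10 members 7 passed this filter, and S100A8, S100A14 and S100P did not. Among the 7, limma called 2 higher (S100A16 and S100A2) and 1 lower (S100A9) at an adjusted p under 0.05. Over all tested genes 0.316% were called higher, 0.162% lower and 0.477% in either direction, which were 39 and 20 genes. The split was 46 higher and 50 lower with median centring and 47 and 48 with quantile normalization. The groups did not overlap for 4 of the 7 members, and for 17.9% of all tested genes. Since the members were chosen with this comparison known, nothing is read from these shares. The number of called members depended on the settings, being 0 without a filter on low values and 1 or 2 with any library left out. Of the 13 alternative settings, 12 called S100A9, but only 5 called S100A2 and 5 called S100A16. In RNA from whole cultures, fewer cells of a type and less RNA per cell cannot be told apart.

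**Figure D1:**
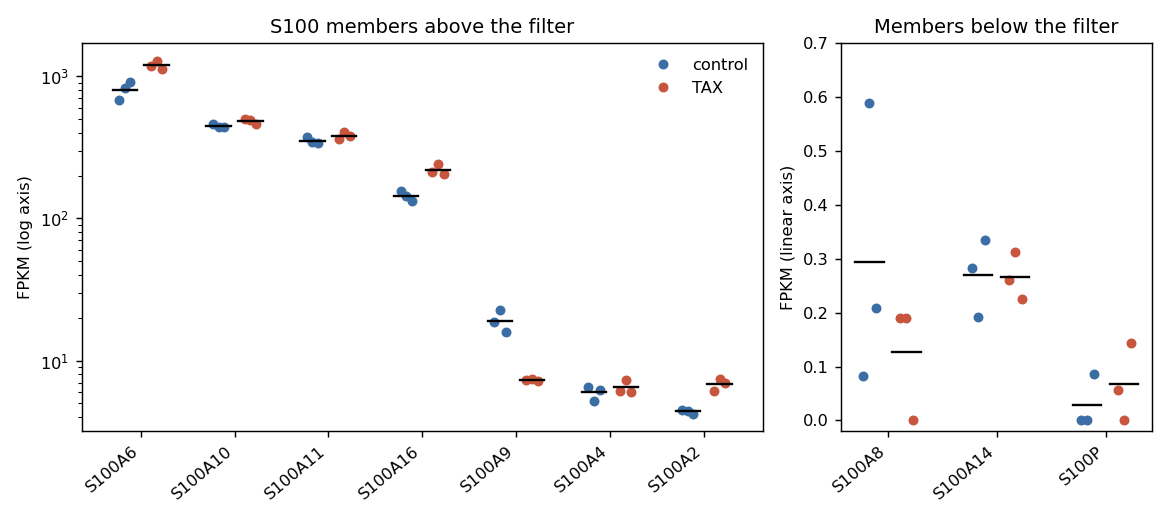
FPKM of the 10 S100 members in each library (points; black lines, group means; n = 3 each), on a log axis for the 7 members above the filter and a linear axis for the 3 below it. S100A9 lies between 15.8 and 22.5 FPKM in control and between 7.21 and 7.47 FPKM in TAX libraries, while S100A6, S100A16 and S100A2 lie higher in all TAX libraries.

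S100A9, the partner of S100A8 in calprotectin, had 18.6, 22.5 and 15.8 FPKM in the controls and 7.30, 7.47 and 7.21 FPKM after TAX. All TAX libraries lay below all control libraries, and they lay closer together than the control libraries did. The mean was 19.0 ± 3.36 without and 7.32 ± 0.131 FPKM with TAX (SD, n = 3 each), a ratio of 0.386. The log2 difference was -1.25 with a standard error of 0.11, and it lay between -1.37 and -1.12 over the 13 alternative settings.

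S100A8, which encodes the other chain of calprotectin, was close to 0 in all libraries, at 0.0824, 0.590 and 0.208 FPKM in the control libraries. In the TAX libraries it was 0.190, 0.191 and 0 FPKM. The groups overlapped, control replicate 2 was the highest, and the level of S100A8 was below that of S100A9 in every library. S100A12, a related alarmin gene that lies between S100A9 and S100A8, had 0.506, 0.783 and 0.685 FPKM in control and 0.543, 0.333 and 0.355 FPKM in TAX libraries, which also overlapped. Their low values are not set against S100A9 as a difference in response, because neither passed the filter.

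S100P, a secreted ligand of the receptor RAGE, was listed at 0 in 3 of the 6 libraries and did not exceed 0.144 FPKM. S100A14, an epithelial family member, had a mean of 0.269 ± 0.0726 without and 0.266 ± 0.0440 FPKM with TAX (SD, n = 3 each) with overlapping groups. S100A16, whose gene is its direct neighbour, was among the abundant members. Its FPKM was 155, 143 and 132 in the controls and 212, 241 and 206 after TAX. The lowest TAX library thus lay above the highest control library. The means were 143 ± 11.3 and 220 ± 18.8 FPKM (SD, n = 3 each), a ratio of 1.53, and the log2 difference was 0.61 (standard error 0.098).

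S100A6, also called calcyclin, was the most abundant S100 gene, ranking between 17 and 37 among all identifiers of a library. It had 681, 823 and 907 FPKM in the controls and 1185, 1281 and 1121 FPKM after TAX. The groups did not overlap, with control replicate 1 the lowest of the 6 libraries. The mean was 804 ± 114 without and 1196 ± 80.4 FPKM with TAX (SD, n = 3 each), a ratio of 1.49. The log2 difference of 0.58 (standard error 0.12) was not called over all genes. S100A2, a mostly nuclear member that binds p53, was at 4.51, 4.42 and 4.24 FPKM in control and at 6.14, 7.43 and 6.92 FPKM in TAX libraries. Its control libraries all lay below the TAX libraries, with means of 4.39 ± 0.141 and 6.83 ± 0.652 FPKM (SD, n = 3 each). The ratio of the means was 1.555 and the log2 difference 0.53 (standard error 0.086).

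S100A4, which binds non-muscle myosin and is known for its part in cell motility, had 6.54, 5.16 and 6.21 FPKM in control and 6.13, 7.34 and 6.02 FPKM in TAX libraries. The values were intermingled, and the log2 difference was 0.11 (standard error 0.10). S100A10, the light chain of the annexin A2 complex that binds plasminogen at the cell surface, had 465, 441 and 442 FPKM without and 502, 496 and 461 FPKM with TAX, on average 449 ± 13.9 and 486 ± 21.9 FPKM (SD, n = 3 each). The lowest TAX library lay within the control range. S100A11, a partner of annexin A1, had 375, 343 and 342 FPKM without and 361, 403 and 379.5 FPKM with TAX, on average 353 ± 19.2 and 381 ± 21.1 FPKM (SD, n = 3 each). The log2 differences of both genes were 0.11 (standard errors 0.089 and 0.091), their groups overlapped, and over all tested genes the median difference was 0.054.

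The remaining S100 genes were outside the list. S100A3 was at 2.75, 1.96 and 2.46 FPKM in control and at 3.44, 4.08 and 3.77 FPKM in TAX libraries without overlap, with a log2 difference of 0.50 (standard error 0.10, adjusted p = 0.0862 from limma). S100A13 had 59.6 ± 3.72 and 67.9 ± 4.02 FPKM (SD, n = 3 each, limma adjusted p = 0.493), but 25.7% of the 50-base stretches of its transcripts also occur in other genes, more of them in AL162258.1 on the same strand than in S100A1 on the opposite strand, so its value is uncertain. S100A1 and S100PBP overlapped between groups (adjusted p = 0.834 and 0.7095 from limma). Of the 50-base stretches of S100A1, 13.6% also occur in other genes, S100A13 among them, so the value of S100A1 is uncertain as well. S100A5 did not exceed 0.244 FPKM and S100B 0.0693 FPKM, while S100A7, S100A7A, S100A7L2, S100G and S100Z were listed at 0 in all 6 libraries. None of the 4 tested genes of this group was called by limma. An unadjusted p under 0.05 was found for 1 of them, S100A3, against 10.1% of all tested genes.

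The FPKM of the 21 S100 genes, S100PBP left out, summed to 1769, 1846 and 1921 in the control libraries and to 2353, 2524 and 2258 in the TAX libraries. S100A6 made up 38.5, 44.6 and 47.2% of this sum in the control and 50.4, 50.7 and 49.6% in the TAX libraries. In both groups the order began with S100A6, S100A10, S100A11, S100A16, S100A13 and S100A9, and the ranges of neighbours among the first 6 did not overlap in either group. In control cells S100A9 lay above S100A4 and S100A2, whereas in TAX-treated cells the ranges of S100A9, S100A2 and S100A4 overlapped, at means of 7.32, 6.83 and 6.50 FPKM. Below them S100A2, S100A1 and S100A3 had overlapping neighbours in the control order, as did S100A12, S100A8, S100A14 and S100A5.

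Ratios of genes within a library do not depend on how the library was scaled. Per 100 FPKM of S100A10 there were 3.99, 5.11 and 3.58 FPKM of S100A9 in the controls and 1.455, 1.51 and 1.56 FPKM after TAX, without overlap. The ratio of S100A6 to S100A10 was 1.46, 1.87 and 2.05 in the control and 2.36, 2.58 and 2.43 in the TAX libraries, also without overlap. The value of S100A13 is uncertain, as stated above, and so are ratios to it. S100A16 over this neighbouring gene was 2.42 ± 0.312 in control and 3.24 ± 0.0997 in TAX-treated cells (SD, n = 3 each). By contrast, S100A10 over ANXA2, the gene of its partner annexin A2, was 0.546 ± 0.0561 and 0.534 ± 0.0417 (SD, n = 3 each), with overlapping values. S100A11 over ANXA1 overlapped as well, at 1.20 ± 0.164 and 1.12 ± 0.0948 (SD, n = 3 each).

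**Figure D2:**
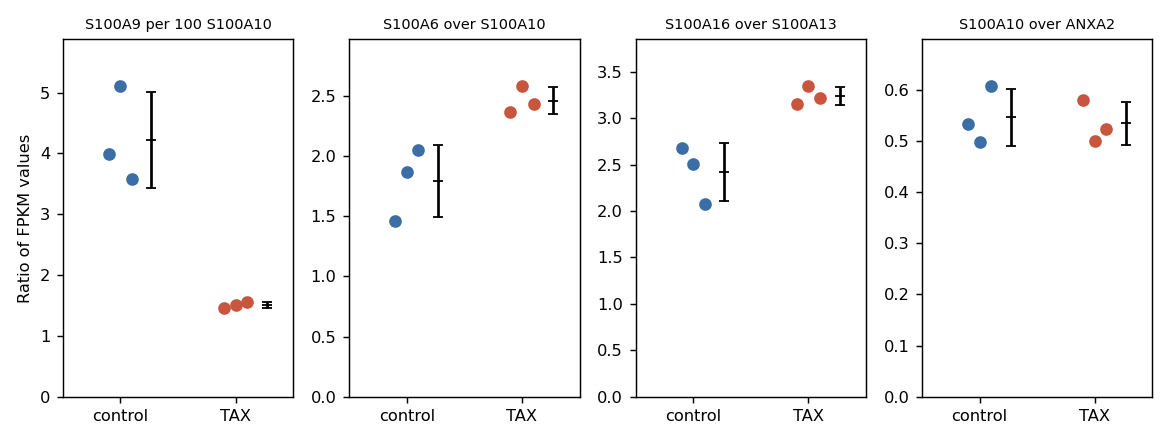
Ratios of FPKM values within each library (points; bars, mean and SD; n = 3 each; axes start at 0). S100A9 relative to S100A10 is lower and S100A6 relative to S100A10 and S100A16 relative to S100A13 are higher in all TAX libraries, while S100A10 over ANXA2 overlaps between 0.497 and 0.607 in control and 0.499 and 0.581 in TAX libraries. The value of S100A13 is uncertain.

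Along chromosome 1, the higher genes S100A6, S100A3, S100A2 and S100A16 lie within 78.55 kb that also hold S100A4, S100A5 and none of the tested genes outside the family. S100A9 starts 178 kb before S100A6. The first tested genes after the cluster, CHTOP, SNAPIN and ILF2, overlapped between groups, with log2 differences of 0.046, 0.035 and 0.052 (limma adjusted p between 0.853 and 0.907). For the members' own values the position is a description only. Within 1 Mb of a member, S100P on chromosome 4 included, lie 65 tested genes other than the S100 genes above. They include HRNR and FLG, which are fused-type S100 genes described below. Of the 65, 45 were higher and 20 lower, with a median log2 difference of 0.046, against 0.054 over all tested genes. None of these neighbours was called by limma, and 1 had an unadjusted p under 0.05, against 10.1% of all tested genes. That gene was IL6R, the interleukin 6 receptor, with 8.61 ± 0.557 without and 11.3 ± 0.745 FPKM with TAX (SD, n = 3 each, limma adjusted p = 0.144). The most abundant other neighbours, RPS27, TPM3, PSMB4 and C1orf43, had log2 differences of -0.28, 0.16, 0.062 and 0.17 (limma adjusted p between 0.543 and 0.843).

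**Figure D3:**
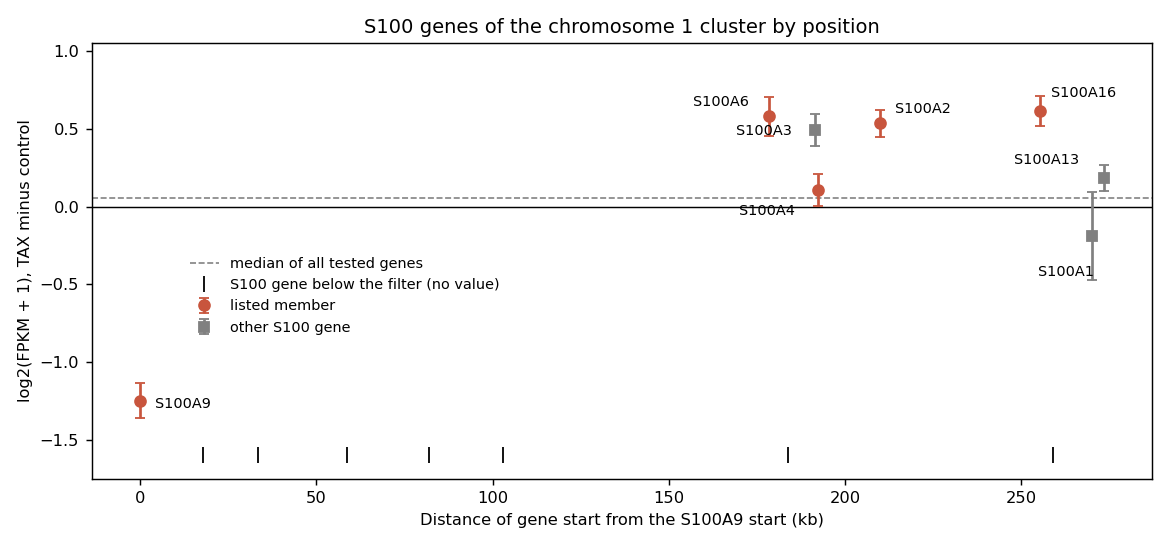
Log2 difference (TAX minus control, limma; bars, standard error; n = 3 each) of S100 genes against the distance of their start from the S100A9 start in kb; the dashed line is the median of all tested genes, and ticks near the bottom mark S100 genes below the filter. S100A9 stands at -1.25, and S100A6, S100A3, S100A2 and S100A16 between 0.50 and 0.61 with S100A4 at 0.11 among them.

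All 18 intracellular partners of S100 proteins were tested. With TAX 14 were higher and 4 lower, around a median of 0.11 on the log2 scale. The median over all tested genes, 0.054, was above 0 as well, so the directions are not read as a trait of the partners. None was called by limma. This list and those of receptors and transcription factors below were chosen with earlier results of these data known. Their counts are a description. An unadjusted p under 0.05 was found for 3 of the 18 (AHNAK, MYH9 and SUGT1), against 10.1% of all tested genes. AHNAK, a giant scaffold protein that binds the S100A10 and annexin A2 complex, had 92.8, 88.6 and 79.0 FPKM in control and 106, 104 and 115 FPKM in TAX libraries (log2 difference 0.32, adjusted p = 0.250 from limma). MYH9, the non-muscle myosin heavy chain bound by S100A4, had 210, 208 and 151 FPKM in control and 233, 215 and 238 FPKM in TAX libraries (log2 difference 0.28, adjusted p = 0.487). Groups did not overlap for 5 of the 18 partners, AHNAK and MYH9 among them, and for 17.9% of all tested genes. For MYH9 control replicate 3 stood below the other controls. SUGT1, a co-chaperone that binds S100A6, had 6.91 ± 0.635 and 8.35 ± 0.245 FPKM (SD, n = 3 each, limma adjusted p = 0.372). ANXA2, ANXA1, ANXA5 and CAPZA1, the most abundant of the others, had log2 differences of 0.14, 0.20, 0.11 and 0.017 (limma adjusted p between 0.543 and 0.955). The direction of CAPZA1 turned with median centring and quantile normalization.

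Of 13 receptor and surface partner genes 9 passed the filter, 4 of them higher and 5 lower, and none was called by limma. An unadjusted p under 0.05 was found for 1 of the 9, against 10.1% of all tested genes. That gene was SDC1, syndecan-1, a heparan sulfate proteoglycan, with 104 ± 5.36 without and 122 ± 4.70 FPKM with TAX (SD, n = 3 each, limma adjusted p = 0.406). AGER, the gene of RAGE, was low, at 3.77 ± 0.822 and 4.04 ± 0.381 FPKM (SD, n = 3 each, limma adjusted p = 0.815). TLR4, a receptor of calprotectin, and CD33 were listed at 0 in all libraries. BSG, which encodes the S100A9 receptor basigin, had 275 ± 27.8 and 308 ± 14.9 FPKM (SD, n = 3 each, limma adjusted p = 0.591). NPTN, EGFR and ALCAM overlapped between groups (limma adjusted p between 0.540 and 0.921).

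Among 8 transcription factor genes known for S100A8 and S100A9, 7 passed the filter, 5 higher and 2 lower. CEBPD, a C/EBP factor of inflammation and stress, had 48.6, 55.4 and 41.4 FPKM in the controls and 35.1, 33.0 and 30.9 FPKM after TAX. All TAX libraries lay below all control libraries. The log2 difference of CEBPD was -0.53 (standard error 0.11, adjusted p = 0.0854 from limma), so that it did not pass over all genes, although it did with median centring, quantile normalization or without control replicate 3. CEBPD was the only 1 of the 7 with an unadjusted p under 0.05, against 10.1% of all tested genes, and none was called by limma. CEBPB, STAT3, HIF1A and RELA had log2 differences of -0.093, 0.016, 0.084 and 0.19 with overlapping groups (limma adjusted p between 0.547 and 0.970), and the direction of STAT3 turned with median centring and quantile normalization. SPI1, a myeloid factor, was listed at 0 in 5 of 6 libraries. Of 7 fused-type S100 genes, which join an S100 part to long repeats, HRNR and FLG passed the filter and differed by -0.18 and -0.016 on the log2 scale (adjusted p = 0.573 and 0.966 from limma).

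**Figure D4:**
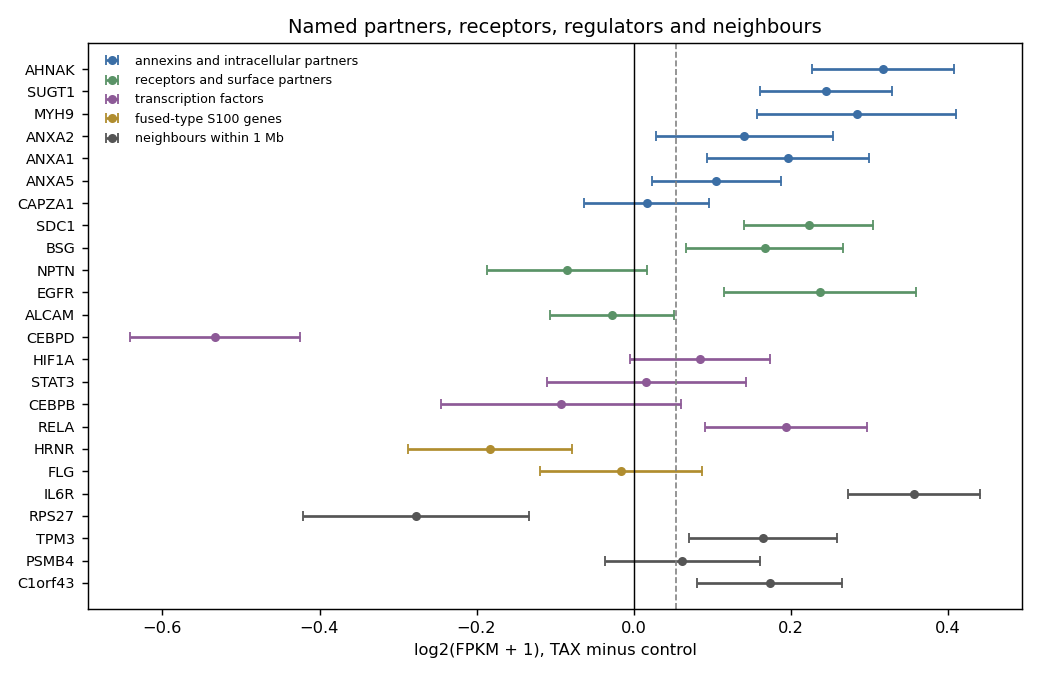
Log2 difference (TAX minus control, limma; bars, standard error; n = 3 each) of the named partners, receptors, transcription factors, fused-type S100 genes and neighbours; the dashed line is the median of all tested genes. CEBPD stands lowest at -0.53 and IL6R highest at 0.36, and none of the genes had an adjusted p under 0.05. Some of the genes are shown because they had an unadjusted limma p under 0.05 and no overlap between groups.

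Since S100A8 and S100A9 are abundant in myeloid cells, markers of leukocytes were read in the same libraries. Of the 8 markers CSF3R and MPO were listed at 0 in all libraries, PTPRC and LYZ did not exceed 0.02495 FPKM, and all except CD68 stayed at or below 0.419 FPKM. CD68, a lysosomal protein that epithelial cells also express, had 23.4 ± 3.34 without and 33.0 ± 0.483 FPKM with TAX (SD, n = 3 each, limma adjusted p = 0.0884), and it set the sum of the list, which was 20.4 to 26.9 FPKM in control and 32.8 to 34.0 FPKM in TAX libraries. Of the 5 fibroblast markers COL1A1, at 2.00 ± 0.0947 and 1.44 ± 0.0285 FPKM (SD, n = 3 each, limma adjusted p = 0.197), was the only 1 above 0.0755 FPKM, COL1A2 and DCN were listed at 0, and the list summed to 1.94 to 2.12 FPKM in control and 1.495 to 1.58 FPKM in TAX libraries. The 3 endothelial markers did not exceed 0.0271 FPKM. The summed epithelial markers were 428 to 546 FPKM in control and 555 to 606 FPKM in TAX libraries. No overlap between groups, found for 17.9% of all tested genes, was seen for KRT18, KRT19 and EPCAM (limma adjusted p = 0.411, 0.336 and 0.570). KRT8 and CDH1 overlapped between groups, with log2 differences of 0.14 and -0.16 (limma adjusted p = 0.698 and 0.733), so the epithelial markers did not all move the same way. The part of these markers in the S100 differences was not tested.

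The 5 tested genes whose 6 log2 values, centred on their mean, lay nearest to those of S100A9 by Euclidean distance were PDZK1IP1 (distance 0.301), SLPI (0.372), MATR3 (0.467), C3 (0.474) and SAA1 (0.552). PDZK1IP1, a small membrane protein of epithelia, had 5.06, 5.06 and 4.17 FPKM in control and 1.72, 1.80 and 1.35 FPKM in TAX libraries. SLPI, a protease inhibitor of mucosal secretions, had 4.25 ± 0.291 and 0.973 ± 0.143 FPKM, and SAA1, an acute-phase protein, 2.09 ± 0.477 and 0.420 ± 0.0897 FPKM (SD, n = 3 each). C3, the central complement component, was at 7.36, 11.2 and 5.49 FPKM in control and at 3.64, 3.25 and 3.46 FPKM in TAX libraries. In C3, as in S100A9, control replicate 2 was the highest and control replicate 3 the lowest of the controls. This shared order follows partly from how the genes were picked, so nothing is read from it. MATR3 is a nuclear RNA-binding protein, and 2 Ensembl genes bear its name, so its value is of uncertain origin. The distances rest on 6 libraries and are a description.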

How the data were processed

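RNA of DU145 cultures was sequenced in 3 control and 3 TAX libraries, grouped by their labels. For each library the authors deposited its own gene table, unpooled, whose values were read as FPKM (fragments per kilobase of transcript, scaled to the library). The submitters' processing notes name HISAT2 2.2.0, StringTie 2.1.2 and GRCh38, while strand setting, annotation and filters are not given in the sources used here. No counts were given. To look for steps of whole reads, genes below 0.03 FPKM in both libraries of a pair were compared. The fullest bin of log2 ratios, 0.1 wide, held 4.75 to 12.4% of the 225 to 554 genes, with no dominant step, so depth is unknown and no counting interval is given.

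From the deposited FPKM, log2(FPKM + 1) values entered a linear model in limma (version 3.58.1, R 4.3.3) with trended empirical Bayes and no covariate. Genes needed 1 FPKM or more in 3 or more libraries, which 12359 met, and Benjamini-Hochberg adjustment ran over them. An exact permutation test of 3 against 3 cannot go below 0.1. The fit was also run on simulated data with a log2 shift of 1, larger than the differences of S100A2 and S100A16. That run does not show how well changes of their size are found. The plan had named a test for counts in case the tables held counts.

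Members and gene lists were chosen with earlier results of these data known. Named genes are all S100 genes of the tables and, from each partner list, the genes with an adjusted p under 0.05, those with an unadjusted p under 0.05 and no overlap between groups, and up to 4 more with the highest mean, and the 5 genes nearest to S100A9 in pattern. S100A8 was below the filter, so its nearest genes were not sought. Positions, overlaps and shared stretches of 50 bases were taken from GENCODE 29 (GRCh38), and upstream sequences from RefSeq (GRCh38.p14), where all 10 members matched by symbol. Alternatives were another pseudocount, other filters, median centring, quantile normalization, no trend, a replicate block and leaving out each library. Some marker genes are not reported here.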

Additional observations from a re-analysis of the deposited data

How the results depend on the processing

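Over all tested genes, the number called higher was 39 and the number called lower 20. These were 0 and 1 without a filter on low values (20280 genes tested), 25 and 12 with a filter of 0.1 FPKM (16698 genes), and 13 and 13 with the replicate block. With median centring 50 genes and with quantile normalization 48 genes were called lower, while 46 and 47 were called higher. With each library left out, 8 to 31 genes were called higher and 7 to 18 lower. Of the members, 3 were called, but 0 without a filter, 1 with the replicate block and 1 to 2 with each library left out. The members were chosen with this comparison known, so these counts support nothing about them. None of the 13 alternatives turned the sign of a tested member. In the partner and neighbour lists, 0 of 99 tested genes were called by limma. An unadjusted p under 0.05 was found for 6 of them, against 10.1% of all tested genes. The number called at an adjusted p under 0.05 was 1 with median centring, 1 with quantile normalization and 0 to 1 with each library left out.

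Directions turned in genes whose log2 difference was near 0, and in S100A1, whose difference was -0.19 with a standard error of 0.28. CAPZA1 was at -0.041 with median centring and -0.042 with quantile normalization, and STAT3 at -0.042 and -0.053. With each library left out, the log2 differences ranged from -0.53 to 0.042 for S100A1, from -0.016 to 0.042 for CAPZA1, from -0.073 to 0.017 for ALCAM, from -0.14 to 0.10 for STAT3, from -0.22 to 0.056 for CEBPB, from -0.12 to 0.044 for FLG and from -0.0078 to 0.12 for PSMB4. The cause of these changes was not tested. The deviations of same-numbered control and TAX libraries from their group means had Pearson's r of -0.117, -0.333 and -0.171 across genes. For pairs with unlike numbers r lay between -0.167 and 0.292. The replicate block groups libraries by number only, and whether libraries were paired in another way was not tested. Depth is unknown, which limits statements about S100A8, S100A14 and S100P near 0 FPKM.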
